A study of Homo sapiens with 2 samples.

Results

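The subject here is a set of 5 loci that hold 6 genes of heart and skeletal muscle. They are read in a list of chromatin precipitation peaks from lung cancer cells that overexpress Myocardin (MYOCD). The loci are NPPA, MYH6 together with MYH7, ACTC1, TNNT2 and ACTA1, each taken as the span of the gene in GRCh37 plus 10 kb on either side. They hold 22 of the 105637 peak summits of the list. Both libraries of the study came from A549, an established line of human lung adenocarcinoma cells grown in culture, with MYOCD stably overexpressed from the vector pWPI. One library came from precipitation with anti-Myocardin and the other from precipitation with nonspecific IgG, so both carry the overexpressed gene and cells without it were not among the samples. There is 1 library per antibody and no replicate. The 1 deposited list ties no peak to either antibody, and no source used here states how deeply either library was sequenced. No summit below can therefore be compared between anti-Myocardin and IgG, and no test across samples was possible.

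Myocardin does not bind DNA by itself. It is a coactivator that joins the serum response factor (SRF) on a short element called the CArG box, which is CC, then 6 bases of A or T, then GG, and it switches on genes of smooth and cardiac muscle. Lung epithelial cells do not normally use the genes described here. NPPA encodes the precursor of atrial natriuretic peptide, a hormone of the heart. ACTC1 encodes cardiac alpha-actin and ACTA1 encodes skeletal alpha-actin, the thin-filament actins of striated muscle. MYH6 and MYH7 encode the alpha and beta heavy chains of cardiac myosin, and TNNT2 encodes cardiac troponin T, which anchors the troponin complex to the thin filament.

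Of the 5′ ends measured, which leave out that of MYH6, those of the striated actin genes had a summit within 1 kb. Among the genes with a promoter sequence, which leave out MYH7, they were also the members with a full CArG box in it. Whether the CArG box has a part in the position of these summits was not tested. The sequences are shown because they hold a full CArG box and belong to the genes whose 5′ ends lay nearest to a summit. They come from the RefSeq promoter table (GRCh38.p14, 250 bases before to 50 bases after a listed start), which matched 5 of the 6 genes with 7 promoters. ACTA1 lies on the minus strand at chr1:229434045-229434344 and ACTC1, at the first of its 3 listed starts, on the minus strand at chr15:34795500-34795799. The CArG box is in capitals, and the first base of the box lies 97 bases before the listed start in ACTA1 and 109 bases before it in ACTC1.

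ACTA1 promoter: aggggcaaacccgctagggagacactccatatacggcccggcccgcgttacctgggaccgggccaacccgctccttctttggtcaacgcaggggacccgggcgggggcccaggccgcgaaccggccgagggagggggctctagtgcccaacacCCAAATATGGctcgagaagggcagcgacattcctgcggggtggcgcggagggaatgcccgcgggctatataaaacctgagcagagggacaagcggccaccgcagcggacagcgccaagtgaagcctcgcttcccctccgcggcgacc

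ACTC1 promoter: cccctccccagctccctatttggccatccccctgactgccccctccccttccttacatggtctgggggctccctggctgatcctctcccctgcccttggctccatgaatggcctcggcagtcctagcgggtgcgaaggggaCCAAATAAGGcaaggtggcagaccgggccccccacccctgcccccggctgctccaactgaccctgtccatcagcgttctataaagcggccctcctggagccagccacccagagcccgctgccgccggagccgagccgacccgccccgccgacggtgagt

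A CArG box on either strand stood in the promoters of 2 of the 5 matched members, against 438 of the 27305 genes in the table. Counted by promoter, the share over the table was 1.29% of 35116. With up to 1 departure from the box allowed, each of the 5 matched members held a match in at least 1 promoter. The third listed start of ACTC1 held none. The share over the table, counted by promoter and not by gene, was 18.9%. The closest elements of the other 3 matched genes are shown for comparison, each with 10 bases on either side and the element in capitals.

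NPPA: gggatgataaCTTTAAAAGGgcatctcctg

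TNNT2: ctggcacctgCCAAAATAGCagccaacacc

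MYH6: cggaaggactCCAAATTTAGacagagggtg

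These elements begin 136 bases before the listed start in NPPA, 147 bases before it in TNNT2 and 62 bases before it in MYH6. TNNT2 and MYH6 each held 1 further such element, 197 and 181 bases before the start. The MEF2 box, the element of another family of muscle factors, occurred in none of the 7 promoters of the members, against 0.572% of all promoters. The element CATTCC, known as the MCAT box of muscle promoters and bound by TEAD factors, occurred in the promoters of ACTA1, TNNT2 and MYH6 and at the third listed start of ACTC1, against 14.0% of all promoters. A match is a string of letters and does not show that a factor was bound. Base composition moved with the presence of the box. The promoters of ACTA1 and ACTC1 (first start) had 68.0% and 68.3% G and C with 29 and 16 CpG pairs, against 57.3% with 5 pairs in NPPA, 57.7% with 4 in MYH6 and 61.0% with 8 in TNNT2. The median over the table was 58.7% with 14 pairs. The part of base composition in the position of the summits was not tested.

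ACTA1 carried 3 summits inside its span of 2.9 kb and 1 downstream of it. Positions are in GRCh37, and the peak score comes from the authors' peak caller and serves only to rank summits within the list. The summit at chromosome 1 position 229569834 lay 11 bp inside the 5′ end of the gene and scored 8.85. The next lay at 229568803, 1042 bp from the 5′ end, with a score of 9.68, and the next at 229567742, 2103 bp from the 5′ end, with a score of 8.97. They thus followed each other at 1031 and 1061 bp through the whole gene. The remaining summit, at 229557656, lay 9.3 kb beyond the 3′ end and scored 6.61. All of these scores lay below the upper quartile of the list (12.2), and the 3 inside the gene lay just above its median of 8.50. No summit lay upstream within 10 kb, on the side where RefSeq places NUP133, a gene of the nuclear pore. The nearest one there was 38.1 kb away.

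ACTC1 carried 2 summits, both inside its 7.6 kb span and both close to its 5′ end. The one at chromosome 15 position 35087797 lay 130 bp inside the 5′ end and scored 14.0, and the one at 35086942 lay 985 bp inside and scored 13.18. Both stood in the top 25% of the list, at ranks 19591 and 21585. The score of the second is shared by 1321 peaks of the list, the only one of the 22 members with a score held by at least 150 peaks (4.55%, against 29.4% of all peaks). Beyond this pair the surroundings were bare. The nearest other summits lay 33.3 kb downstream, with a score of 20.6, and 103.2 kb upstream, with a score of 11.16. RefSeq lists 2 further starts of ACTC1, 641 and 1432 bases downstream of the first. Which of the 3 starts corresponds to the 5′ end of the GRCh37 span was not determined. The distance between a summit and the CArG box is therefore not given for either actin gene, since the promoter sequences and the list are on different builds.

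**Figure D1:**
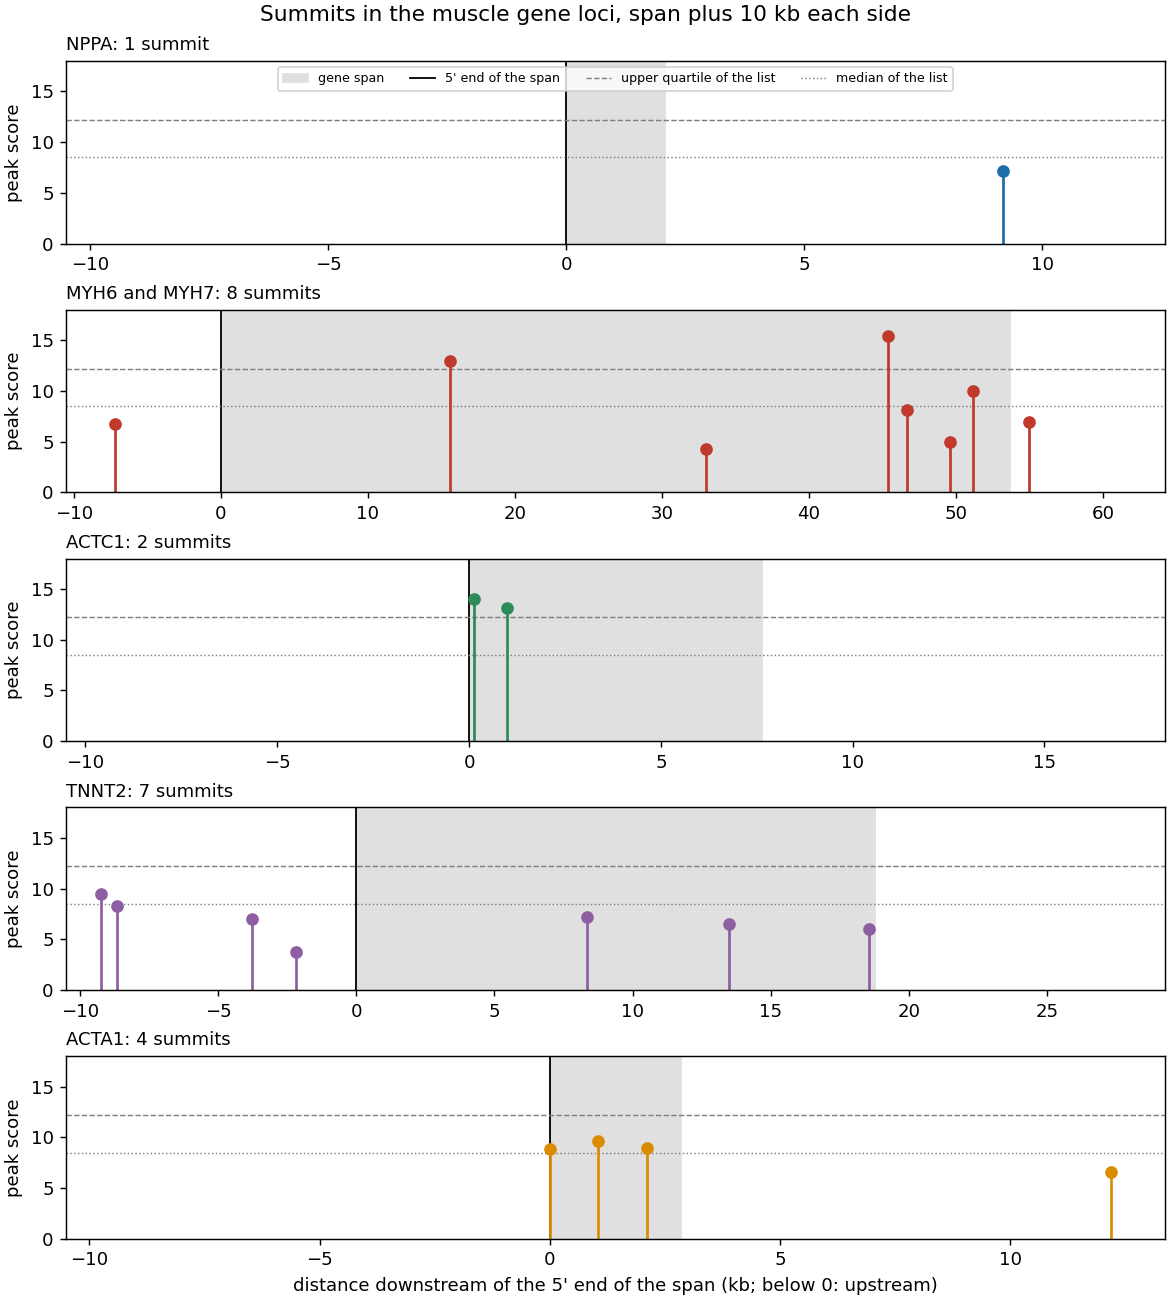
Position of each of the 22 summits (kilobases downstream of the 5′ end of the gene span, all genes drawn 5′ to 3′) against its peak score, in 1 panel per locus; grey marks the span, and dashed and dotted lines the upper quartile (12.2) and median (8.50) of the whole list. Summits stand at the 5′ end of ACTC1 and ACTA1, while the span of NPPA is empty and most summits of the myosin locus lie toward its 3′ end.

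NPPA had no summit inside its span. The only summit of the locus lay at chromosome 1 position 11898665, 7.1 kb beyond the 3′ end of the gene and 9.18 kb from its 5′ end, on the side where RefSeq places the chloride channel gene CLCN6. It scored 7.19, at rank 70982. Just outside the 10 kb limit, at 11919355, a stronger summit with a score of 13.18 lay 11.5 kb upstream, on the side where NPPB, the gene of B-type natriuretic peptide, is the next coding gene. The natriuretic peptide gene itself was thus without a summit in this list, and at unknown depth this does not show that nothing was bound there.

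The myosin locus, where MYH6 lies on the 3′ side of MYH7, carried 8 summits, of which 6 lay inside the joint span of 53.7 kb. They were unevenly placed. The strongest, at chromosome 14 position 23859510, scored 15.47 and was the strongest of all 22 members (rank 14625). It lay 8.3 kb from the 3′ end of the span, and the summits at 23858182 (score 8.09), 23855312 (4.93) and 23853723 (9.95) lay between it and that end. A further summit, at 23849890 with a score of 6.93, lay 1.3 kb beyond the span. The 5′ part of the span was sparser. The summit at 23889249, 15.6 kb downstream of the 5′ end of MYH7, scored 12.95, and the one at 23871852, 33.0 kb downstream, scored 4.26. The nearest summit to the 5′ end of MYH7 lay 7.22 kb upstream at 23912087 and scored 6.77. The boundary between the genes is not part of the spans used here, so single summits are not assigned to MYH6 or MYH7, nor to the microRNA genes MIR208A and MIR208B that lie within them. The heavy-chain genes are close relatives in sequence, as are the actin genes, and no source used here says what was done with reads that match several copies.

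TNNT2 carried 7 summits, of which 6 scored below the median of the list and 1 above it. Inside its span of 18.8 kb lay those at chromosome 1 positions 201338529 (score 7.15), 201333400 (6.52) and 201328321 (6.02), the last of them 185 bp from the 3′ end of the gene. They were spaced about evenly, at 5129 and 5079 bp. Upstream lay 4 more, on the side of the neighbouring gene LAD1, which encodes an anchoring-filament protein of epithelia. Those at 201349073 and 201350669, 2.18 and 3.8 kb from the 5′ end, scored 3.77 and 6.97, and the first of these had the lowest score of all members. Those at 201355561 and 201356131, 8.7 and 9.2 kb upstream and 570 bp apart, scored 8.3 and 9.49. None reached the top 25% of the list, and no summit lay within 2 kb of the 5′ end. A summit just outside the limit, 11.5 kb upstream, scored 9.55.

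Set against windows of the same length on the same chromosome, TNNT2, ACTA1 and the myosin locus stood more than 1 SD above the mean of the windows when all scores and flanks of 10 kb were counted, while NPPA and ACTC1 stood within 1 SD of it. These windows started every 1 kb throughout the sequence covered by the list, and their values describe this list without a test. The 38.8 kb of the TNNT2 locus held 7 summits (exact Poisson 95% interval 2.81 to 14.4), against 1.38 ± 1.52 (SD) per window on chromosome 1, and 0.644% of the 228096 windows held at least as many. The 22.9 kb of the ACTA1 locus held 4 (1.09 to 10.2), against 0.816 ± 1.05 per window, a count reached by 2.40% of windows. The 73.7 kb of the myosin locus held 8 (3.45 to 15.8), against 3.01 ± 2.71 per window on chromosome 14, a count reached by 7.76% of windows. ACTC1 with 2 summits (0.242 to 7.22) stood within the spread of 1.32 ± 1.39 per window on chromosome 15, where 36.9% of windows held as many. NPPA with 1 summit (0.0253 to 5.57) stood at 0.788 ± 1.03 per window, where 48.3% held at least 1. The order of the loci changed with the scores counted. With only the top 25% of scores TNNT2, ACTA1 and NPPA held 0 summits. ACTC1 and the myosin locus then held 2 each, which was 6.0 and 2.32 times the mean of the windows. With scores at or above the median TNNT2 held 1 summit, 1.5 times the mean. ACTC1 held 2, at 3.01 times, and ACTA1 held 3, at 7.62 times. Without flanks ACTC1 held 2, at 5.47 times the mean. These ratios rest on few summits and are given without an interval, and the 2 of ACTC1 lay 855 bp apart. The Poisson intervals here and below cover counting error only.

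**Figure D2:**
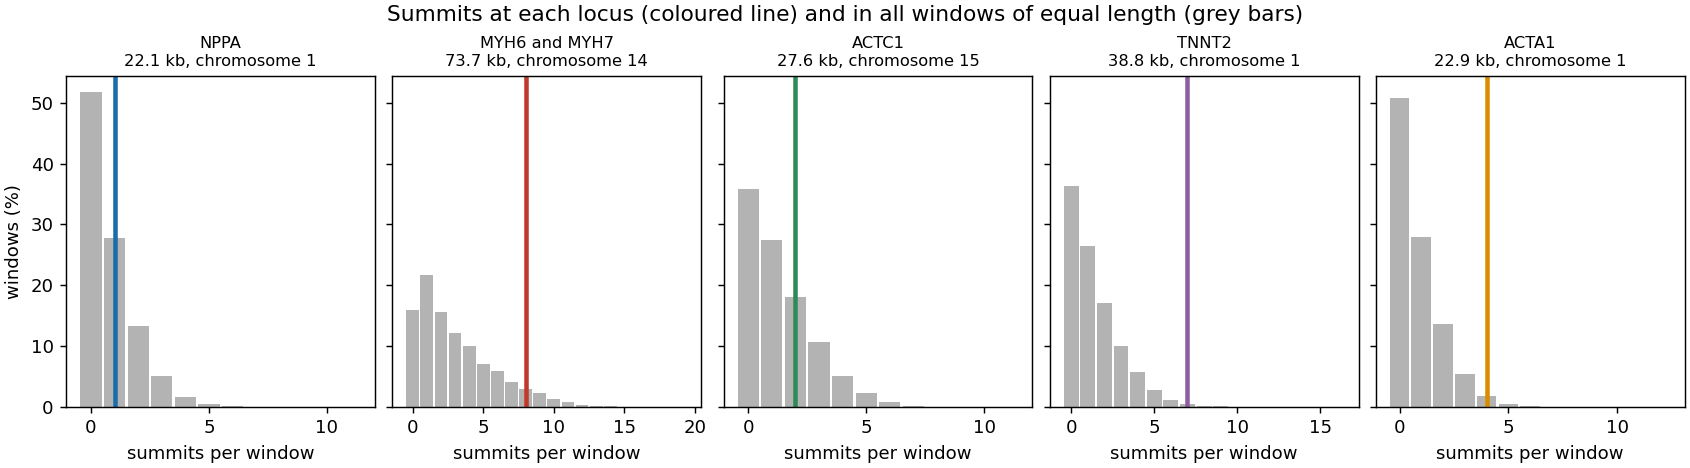
Share of equal-length windows on the same chromosome (grey bars, percent of windows) by the number of summits they hold, for each locus, with the count at the locus as a coloured line. TNNT2 (7), ACTA1 (4) and the myosin locus (8) stand in the right tail, NPPA (1) and ACTC1 (2) in the body of the distribution.

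Together the 5 loci held 22 summits in 185.0 kb (119 per Mb), 3.00 times (1.88 to 4.55) the 7.33 that the windows averaged. This interval takes the summits as independent and leaves out any clustering, and no spread of windows was computed for the sum. The windows take in sequence with and without genes. With windows within 5 Mb of each locus alone, which averaged more summits than the whole chromosome at every locus but ACTC1, the ratio was 2.42 over all loci. By locus it was 3.32 for TNNT2, 3.03 for ACTA1, 2.34 for the myosin locus, 1.67 for ACTC1 and 0.977 for NPPA. The spans themselves held 14 summits in 85.0 kb (165 per Mb, interval of the count 7.65 to 23.5). The 100 kb of flanks held 8 (80.0 per Mb, interval of the count 3.45 to 15.8). These intervals belong to counts over unlike lengths, so they do not compare the densities, and the difference was not tested. Loci of other genes were not placed on GRCh37 here, so whether muscle genes differ from other genes of their size was not tested.

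Of the 17 pairs of adjacent summits within a locus, 5 lay 0.5 to 1.5 kb apart. Pairs within a locus cannot lie farther apart than its length, so no share over the whole list is set beside this count. The 5 pairs were 2 in ACTA1 and 1 each in ACTC1, TNNT2 and the myosin locus. The list gives no peak widths, so whether such a pair is a single broad region or separate peaks cannot be told apart. Counted with summits within 2 kb of each other merged, an alternative chosen after seeing the data, the loci held 15 sites and the ratio to windows merged in the same way was 2.30. ACTC1 then held 1 site and ACTA1 held 2.

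The 5′ ends of the genes differed widely in their distance to a summit. It was 11 bp for ACTA1 and 130 bp for ACTC1, then 2.18 kb for TNNT2, 7.22 kb for MYH7 and 9.18 kb for NPPA. The start of MYH6 is not part of the spans used here. Of points placed every 1 kb on chromosome 1, 0.0780% had a summit as near as that of ACTA1, 14.1% as near as that of TNNT2 and 43.4% as near as that of NPPA. The share was 1.23% on chromosome 15 for ACTC1 and 41.2% on chromosome 14 for MYH7. Within 1 kb, 2 of the 5 starts had a summit, against 7.48% of the points on the 3 chromosomes. Within 5 kb it was 3 of 5, against 31.1%, and within 10 kb 5 of 5, against 48.6%. Counting the top 25% of scores alone, 1 of the 5 starts, that of ACTC1, had a summit within 10 kb, against 18.5% of points. The points are not gene starts, and how often the starts of other genes have a summit as near was not tested, so no distance here can be called particular to muscle genes.

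**Figure D3:**
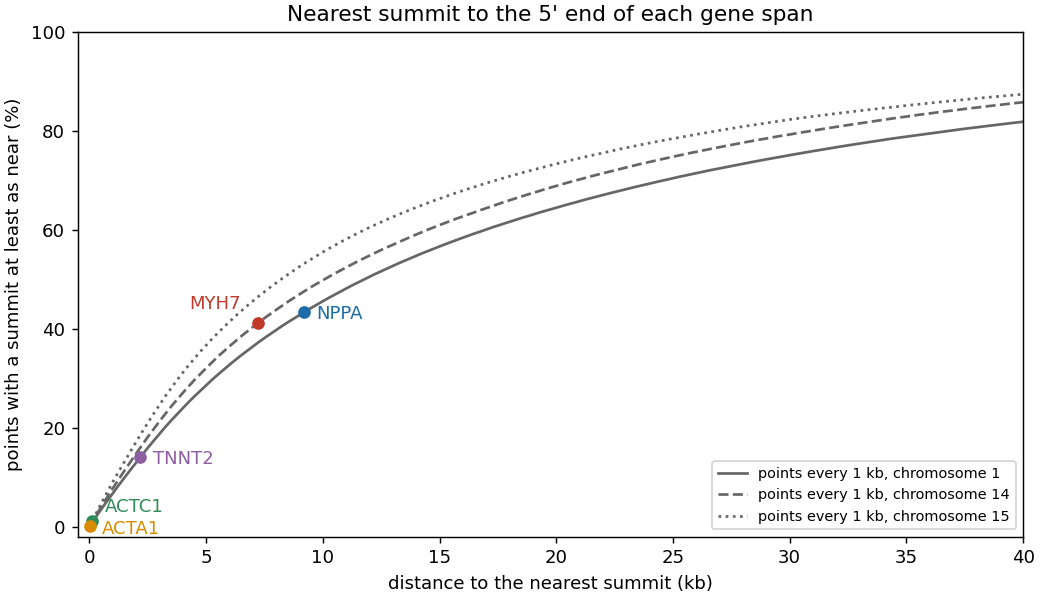
Distance from the 5′ end of each gene span to its nearest summit (kilobases) against the share of points every 1 kb on the same chromosome with a summit at least as near (percent); lines give that share for all distances. ACTA1 and ACTC1 stand close to the origin (0.0780% and 1.23%), and MYH7 (41.2%) and NPPA (43.4%) near the middle of the range.

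The summits of these loci were of ordinary strength. Their median score was 7.64, with a range of 3.77 to 15.47, against a median of 8.50 over the whole list and 8.43 over chromosomes 1, 14 and 15. In the top 25% of scores were 4 of the 22 (18.2%, with a 95% Clopper-Pearson interval of 5.19% to 40.3%). This interval covers counting error only and takes the summits as independent. Over the list 26.3% stood at or above the same score, because of ties. These 4 were both summits of ACTC1 and 2 of the myosin locus. None of the 22 stood in the top 10% of the list. The median score was 6.97 over the 7 summits of TNNT2, 7.51 over the 8 of the myosin locus, 8.91 over the 4 of ACTA1 and 13.6 over the 2 of ACTC1, and the single summit of NPPA scored 7.19.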

How the data were processed

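Chromatin of A549 cells that overexpress MYOCD was precipitated with anti-Myocardin or IgG, with 1 library each. The authors deposited 1 list of 1 bp summits and a peak score for each, whose unit the file header does not name. The list's name refers to the peak caller MACS. Its settings, the aligner and the use of the IgG library are not stated in any source used here. The submitters' processing notes name CASAVA 1.4 and the builds mm9 and GRCh38.p12, but 13627 and 1093 summits lie past a chromosome end there, 1667 on hg18 and 0 on hg19 (GRCh37).

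The gene spans in GRCh37 were given with the choice of genes, and the 5′ end is the end of the span, since the RefSeq promoter table puts the matched genes on the minus strand; MYH7, which it does not list, was taken to share the strand of MYH6. Every summit in the spans plus 10 kb was used, and the genes named are these 6 and their coding neighbours in RefSeq (GRCh38.p14, names only). The members, lists and measures were chosen with earlier results of these data known.

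Every equal-length window at steps of 1 kb, in place of randomly drawn ones, was counted over the covered sequence, which is the range from the first to the last summit without stretches of at least 1 Mb that hold none. Intervals are exact Poisson or Clopper-Pearson at 95%. Motifs were searched on both strands. Alternatives were other flanks, score limits, window ranges, omitted loci and merged summits. Window counts and the motif search were tested on simulated data. The simulated summits were drawn independently of each other, so clustering of summits was not covered. Python 3.11.15, numpy 2.4.6, pandas 2.3.3 and scipy 1.17.1 were used.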

Additional observations from a re-analysis of the deposited data

How the results depend on the processing

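The 9 results were recomputed under 64 alternatives. Of these, 48 kept the direction and stayed within the counting interval of the value (for counts, within 1.5 times). Another 6 moved outside it and 10 turned or had no summit left. The intervals were wide, such as 0.0321 to 7.07 for the ratio of NPPA and 1.34 to 12.5 for that of ACTA1. The alternatives also share summits, so the 48 do not show that a result is robust. Over the 5 loci together the ratio to equal-length windows ran from 2.04 with only the top 25% of scores to 4.11 without flanks, and from 2.52 without the TNNT2 locus to 3.33 without the ACTC1 locus. Without flanks the ratio was 29.5 for ACTA1 (3 summits), 5.47 for ACTC1 (2 summits) and 0 for NPPA. It was also 0 for NPPA with flanks of 5 kb, and 0.977 with windows within 5 Mb. For ACTC1 it was 0.876 with flanks of 20 kb, 0.582 with 50 kb and 0.859 with summits within 2 kb merged, by construction since the merged pair counts once. With only the top 25% of scores it was 6.0 for ACTC1 (2 summits) and 0 for NPPA, TNNT2 and ACTA1. With only scores at or above the median it was 0 for NPPA and 1.5 for TNNT2 (1 summit). Starts with a summit within 5 kb went down to 1 among the top 25% of scores, and genes with a CArG box went up to 5 with 1 departure allowed, since each alternative changes what is counted. For the other values the cause was not tested. No paired analysis was possible because there is 1 library per antibody and 1 list, so no replicate could be left out either. Without read counts, what depth limits is not known.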

Other observations

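With flanks of 50 kb the 5 loci held 53 summits, 2.30 times the mean of equal-length windows. By locus the ratio was 4.24 for TNNT2, 2.86 for the myosin locus, 2.72 for ACTA1, 1.10 for NPPA and 0.582 for ACTC1. The strongest summit lay outside the 10 kb limits at NPPA, ACTC1, TNNT2 and ACTA1. Near TNNT2 it scored 21.41 (rank 5048) and lay 36.8 kb upstream of the 5′ end, and the 18 summits there included 9 upstream of the gene and 6 downstream of it. Near ACTC1 it scored 20.6 (rank 5902) and lay 33.3 kb beyond the 3′ end, on the side of GJD2, which encodes a connexin of neurons. Near NPPA it scored 13.18, and near ACTA1, where 10 summits lay within these flanks, 10.9. None of the 10 near ACTA1 reached the top 25% of scores, whereas all 3 near ACTC1 did, 2 of them the pair 855 bp apart. Over the 53 summits 11 did (20.8%), against 26.3% of the whole list.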
